A study of Mus musculus with 18 samples.

Results

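The T cell-made chemokines described here are Ccl1, Ccl3, Ccl4, Ccl5, Xcl1 and Cxcl10, chosen by name as the chemokine genes that CD4 T cells are known to make, and they are 6 of the 33006 genes in the count table. All 6 were found in the table under these symbols and all 6 had unique molecular identifier (UMI) counts. A further 31 chemokine ligand genes of the table were set beside them.

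Chemokines are small secreted proteins that draw leukocytes along a concentration gradient by binding G protein-coupled receptors. Ccl3, Ccl4 and Ccl5 are inflammatory chemokines that draw effector T cells and monocytes, and Ccl3 and Ccl5 bind Ccr1. Ccl1 binds Ccr8, a receptor carried by many activated Treg and Th2 cells. Cxcl10 is an interferon-induced ligand of Cxcr3, the receptor of Th1-type cells, and Xcl1 binds Xcr1 on cross-presenting dendritic cells. Activated effector T cells make Ccl3, Ccl4, Ccl5, Ccl1 and Xcl1 after antigen contact, whereas many cell types make Cxcl10 on receiving interferon.

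The study profiled splenic CD4 T cells with and without a functional Foxp3 gene, which encodes the transcription factor of regulatory T cells (Treg), by droplet single-cell RNA sequencing. There were 18 samples in 8 groups, all from male mice and all sorted as TCRβ+CD4+ cells. The first pair of groups was made with the 10x V2 kit from 3-week-old mice, namely 2 samples of B6 Foxp3DeltaEGFPiCre x ROSA-YFP mice (∆Foxp3, no functional Foxp3) and 2 of B6 Foxp3-IRES-GFP mice (WT, a reporter with intact Foxp3). The V3 kit was used for a second pair, 2 samples of 3-week-old ∆Foxp3 mice of the same genotype and 2 of 9-week-old B6 Foxp3-IRES-GFP x CD45.1 mice, so age and the CD45.1 background differ with genotype there. Mixed marrow chimeras, also V3, gave 3 ∆Foxp3 and 3 WT samples from the same 3 recipients: CD45.2 hosts irradiated with 1000 rad at 7 weeks of age received CD3-depleted marrow of both genotypes and were taken 10 weeks later; the labels give their age as 16 weeks, which is not the sum of these times. In the chimeras both genotypes therefore developed beside WT Treg cells. The last V3 groups were 2 samples of sorted GFP+ Treg cells and 2 of sorted GFP- conventional T cells (Tconv) of 9-week-old WT mice. Outside the chimeras both V3 samples of a group carried 1 sample hashtag in 2 loading channels and may come from 1 mouse, so their p-values measure a spread that may be technical.

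Promoter sequence is shown for 3 members: Ccl1 and Ccl3, whose UMIs lay in few cells, and Cxcl10, the interferon-induced member. Whether promoter sequence relates to the members' levels was not tested. RefSeq start sites on GRCm38.p6 were matched for 4 of the 6 members, Ccl1, Ccl3, Xcl1 and Cxcl10. Each line gives the 250 bases before the start, 5′ to 3′ on the gene's own strand, which is the minus strand for all 3, and capitals mark matches to the motifs searched on both strands. The motifs were TATAAA (the core element of many promoters), TGANTCA (AP-1), GGGA and TTCC with any 2 bases between them (κB), GAAA repeated after any 2 bases (interferon-stimulated response element, ISRE) and AGGTGTGA (T-box), and 12.4%, 6.75%, 1.21%, 2.98% and 1.12% of 32851 promoter windows of the same length held them.
Ccl1, chr11:82179813-82180062: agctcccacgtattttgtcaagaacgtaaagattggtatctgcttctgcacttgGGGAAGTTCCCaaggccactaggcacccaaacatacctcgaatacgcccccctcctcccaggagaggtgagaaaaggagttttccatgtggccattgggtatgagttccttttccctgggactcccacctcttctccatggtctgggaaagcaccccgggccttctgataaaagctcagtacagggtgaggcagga
Ccl3, chr11:83649379-83649628: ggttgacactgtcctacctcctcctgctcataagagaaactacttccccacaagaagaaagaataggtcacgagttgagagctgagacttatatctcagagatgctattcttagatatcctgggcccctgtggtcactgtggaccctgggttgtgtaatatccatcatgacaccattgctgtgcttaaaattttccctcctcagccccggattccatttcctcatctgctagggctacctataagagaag
Cxcl10, chr5:92348890-92349139: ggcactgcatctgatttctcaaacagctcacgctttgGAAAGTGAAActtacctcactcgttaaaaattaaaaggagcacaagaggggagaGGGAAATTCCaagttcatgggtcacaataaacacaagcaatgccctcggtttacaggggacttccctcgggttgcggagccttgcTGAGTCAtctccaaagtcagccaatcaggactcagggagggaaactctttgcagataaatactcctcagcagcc
The Ccl1 window held overlapping κB matches on both strands, at bases 196 to 187 and 195 to 186 before the start. In the Cxcl10 window an ISRE match lay at bases 213 to 204 before the start, a κB match at 159 to 150 and an AP-1 match at 74 to 68. No match was found in the Ccl3 window, nor in that of Xcl1 (chr1:164935523-164935772). These matches describe the sequence only. By the GENCODE M21 annotation of GRCm38, Ccl3 (chromosome 11, 83647844 to 83649355, minus strand) and Ccl4 (chromosome 11, 83662584 to 83664683, plus strand) are neighbours with 13228 bases between them, and Ccl5 lies on the same chromosome at 83525778 to 83530518. Ccl1 is annotated at 82176657 to 82305690 of chromosome 11, Xcl1 at 164931644 to 164935527 of chromosome 1 and Cxcl10 at 92346638 to 92348889 of chromosome 5. The printed Ccl1 window lies inside the GENCODE span of Ccl1, because the RefSeq start used is not the outer end of that span. Which start these cells use was not tested.

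The table held 26652 cells that the authors had annotated, and 0 of them were labelled as doublets. Totals ran from 955097 to 14887898 UMIs per sample, and the median cell had 2774 to 3143 UMIs in the V2 samples and 4731 to 8857 in the V3 samples. All 8 markers of CD4 T cells had UMIs, with a summed level of 4438 to 7106 CPM (a gene's UMIs scaled to a common library total) over the samples. Of the barcodes, 102 occurred in more than 1 sample, 90 of them among the V2 libraries and 0 within a V3 channel. Activated Tconv, a class named by the authors, made up 21.8% and 38.2% of cells in the V2 ∆Foxp3 samples and 11.2% and 12.5% in WT, and 46.0% and 47.4% in the V3 ∆Foxp3 samples and 14.6% and 19.9% in 9-week-old WT. In sums over all cells, more cells of a type and more RNA per cell cannot be told apart.

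Summed over all cells, Ccl1, Ccl3, Ccl4 and Ccl5 were higher in ∆Foxp3 than in WT mice in both kit versions. In the V2 samples 5 of the 6 members rose (Ccl1, Ccl3, Ccl4, Ccl5 and Cxcl10), beside 14.4% of the 10675 genes tested that rose (edgeR quasi-likelihood test, Benjamini-Hochberg adjusted p under 0.05). In the V3 samples 4 of the 6 rose (Ccl1, Ccl3, Ccl4 and Ccl5), beside 22.1% of the 10918 genes tested. The median log2 fold change of the 6 members was 5.43 in V2 and 2.99 in V3, with medians of -0.0090 and -0.0050 over all genes tested. The V2 median is also 5.43 with Ccl1, which had 0 UMIs in WT, set to its lower bound.

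**Figure D1:**
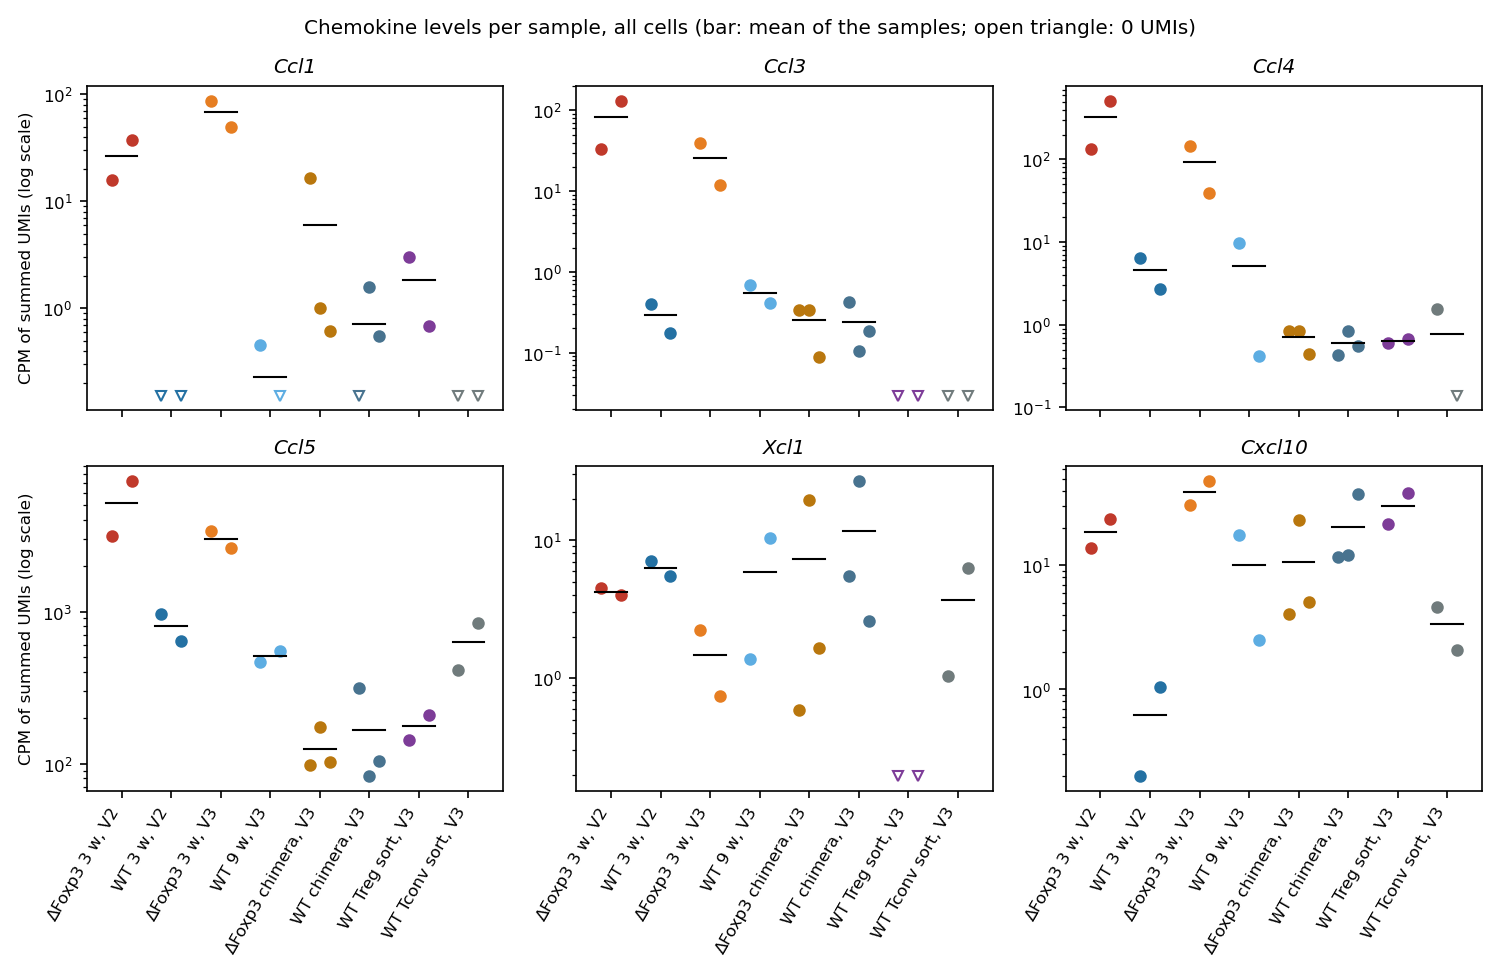
Level of each member summed over all cells of a sample (CPM, log axis) in the 8 groups; each point is 1 sample, the bar is the group mean and an open triangle is a sample with 0 UMIs. Ccl5 sits at 2633 CPM or more in all 4 samples of ∆Foxp3 mice and at 963.9 CPM or less in the other 14 samples, while Xcl1 shows no such separation.

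Ccl3 encodes MIP-1α. Its level was 33.5 and 131.7 CPM in the V2 ∆Foxp3 samples A and B and 0.403 and 0.176 CPM in WT A and B. The groups did not overlap, and the log2 fold change was 7.89 ± 1.02 (SE, adjusted p = 0.00476). It ran from 6.70 without ∆Foxp3 B to 8.62 without ∆Foxp3 A and 8.64 without WT A. With V3, Ccl3 stood at 39.3 and 11.8 CPM in ∆Foxp3 samples 1 and 2 and at 0.687 and 0.416 CPM in WT, a log2 fold change of 5.14 ± 0.76 (adjusted p = 0.000131). This moved to 4.07 without ∆Foxp3 1 and 5.80 without ∆Foxp3 2, and rested on 394 UMIs against 4.

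Ccl4, which encodes MIP-1β, had the same pattern. It reached 132.1 and 512.5 CPM in V2 ∆Foxp3 A and B, against 6.45 and 2.72 CPM in WT A and B. The log2 fold change was 6.0 ± 0.76 (adjusted p = 0.00456). Every ∆Foxp3 value was above every WT value. Without ∆Foxp3 B the change was 4.74, without ∆Foxp3 A 6.65 and without WT A 6.79. The V3 values were 145.8 and 39.4 CPM in ∆Foxp3 and 9.85 and 0.416 CPM in WT 1 and 2, again without overlap. This log2 fold change was 3.63 ± 0.61 (adjusted p = 0.000231). It depended in size on each sample, at 2.48 without ∆Foxp3 1, 4.32 without ∆Foxp3 2, 7.52 without WT 1 and 2.98 without WT 2. In WT 1 a single cell, labelled NKT by the authors, held 27 of the 43 Ccl4 UMIs.

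Ccl5 encodes RANTES, which effector and memory T cells store and release. The V2 levels were 3156 and 7234 CPM in ∆Foxp3 A and B and 963.9 and 640.7 CPM in WT. Both ∆Foxp3 samples lay above both WT samples, with a log2 fold change of 2.63 ± 0.39 (adjusted p = 0.00688), or 1.94 without ∆Foxp3 B. In V3 the levels were 3407 and 2633 CPM in ∆Foxp3 and 465.3 and 549.9 CPM in WT, a log2 fold change of 2.36 ± 0.45 (adjusted p = 0.000672). The V3 groups were also well apart. At least 1 Ccl5 UMI was found in 62.6% and 73.1% of cells in V2 ∆Foxp3, 23.1% and 20.8% in V2 WT, 66.7% and 70.2% in V3 ∆Foxp3, and 12.2% and 18.5% in V3 WT.

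Ccl1, the Ccr8 ligand, was at 15.8 and 37.5 CPM in V2 ∆Foxp3 and had 0 UMIs in both V2 WT samples. Taking 3 counts in the WT group as the floor, it was at least 193.6-fold higher in ∆Foxp3 (adjusted p = 0.00387). In V3, Ccl1 was at 87.2 and 49.4 CPM in ∆Foxp3 and at 0.458 and 0 CPM in WT. That is 1093 UMIs against 2, a ratio of 222.4 with an exact counting interval of 61.4 to 1838 (log2 fold change 7.52 ± 1.57, adjusted p = 0.00151; 6.92 without WT 2, while without WT 1 the remaining WT sample had 0 UMIs and the call held). Only 1.25% to 2.03% of the cells of the 4 ∆Foxp3 samples had a Ccl1 UMI.

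Cxcl10, the Cxcr3 ligand, rose in V2 and missed the threshold in V3. Its V2 levels were 13.7 and 23.4 CPM in ∆Foxp3 and 0.202 and 1.05 CPM in WT A and B, a log2 fold change of 4.86 ± 0.53 (adjusted p = 0.00302; 4.00 without WT A, 6.35 without WT B). The V3 levels were 30.7 and 47.9 CPM in ∆Foxp3 and 17.6 and 2.50 CPM in WT, a log2 fold change of 1.53 ± 0.74 (adjusted p = 0.111). Although the V3 groups did not overlap, WT 1 came near ∆Foxp3 1. Cxcl10 passed in V3 when the 2 mouse groups alone were fitted (1.51, adjusted p = 0.0412). It was found in 2.07% and 2.29% of V2 ∆Foxp3 cells and in 0.0569% and 0.230% of WT cells, and in 5.69% and 6.73% against 0.983% and 0.568% in V3.

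Xcl1, lymphotactin, did not pass in either comparison of mice over all cells. It was at 4.51 and 3.98 CPM in V2 ∆Foxp3 and at 7.05 and 5.53 CPM in WT, a log2 fold change of -0.60 ± 0.23 (adjusted p = 0.107). The V3 levels were 2.22 and 0.742 CPM against 1.37 and 10.4 CPM, and the groups overlapped (-2.01 ± 1.81, adjusted p = 0.396). All 25 Xcl1 UMIs of WT 2 came from 1 cell. With the cluster that the authors labelled NKT and cells bearing markers of other cell types left out, the V2 change turned to 2.29 ± 0.54 (adjusted p = 0.0232).

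To show how far the fold changes depend on cells with very many UMIs, each cell was also counted at most once per gene, an alternative chosen after seeing the data. The V2 log2 fold changes were then 5.85 for Ccl3, 5.08 for Ccl4, 3.86 for Cxcl10 and 1.49 for Ccl5, all still past the threshold. Ccl1, found in 68 ∆Foxp3 cells and 0 WT cells, passed too, and no fold is given for it. In V3 they were 2.86 for Ccl1, 2.36 for Ccl3, 1.90 for Ccl4 and 1.70 for Ccl5, all still past the threshold, and Cxcl10 now passed at 2.27 (adjusted p = 0.00271). Xcl1 in V2 passed as lower under this count (-1.04, adjusted p = 0.0408).

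In the chimeras, where cells of both genotypes shared a host, 0 of the 6 members passed over all cells in edgeR's test, beside 0.458% of genes that did. At an unadjusted p under 0.05 there was 1 member, Ccl1 (adjusted p = 0.335), and 1077 genes in all, and DESeq2 called 0 members. Ccl5 was at 97.9, 173.6 and 102.7 CPM in the ∆Foxp3 cells of mice 1 to 3 and at 313.9, 83.1 and 104.3 CPM in the WT cells, with groups that overlapped (log2 fold change -0.28 ± 0.37, adjusted p = 0.917). All 6 chimera values of Ccl5 were below those of the intact V3 groups. Ccl3 stayed at or below 0.426 CPM and Ccl4 at or below 0.842 CPM in all 6 samples. Their log2 fold changes were 0.33 (adjusted p = 0.994) and 0.18 (adjusted p = 1).

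The values of Ccl1, Cxcl10 and Xcl1 also overlapped between the genotypes of the chimeras. Ccl1 was at 16.5, 1.0 and 0.614 CPM in ∆Foxp3 cells and at 0, 1.58 and 0.552 CPM in WT cells. For the first of these values, 1 cell held 142 of the 196 UMIs. Cxcl10 was at 4.04, 23.0 and 5.08 CPM in ∆Foxp3 cells and at 11.7, 12.1 and 37.7 CPM in WT cells (-0.99, adjusted p = 0.662). Xcl1 was at 0.589, 19.7 and 1.67 CPM against 5.54, 26.9 and 2.58 CPM (-0.95, adjusted p = 0.849). It was lower in the ∆Foxp3 cells of all 3 mice, and with the shared mouse as a replicate block the change was -0.81 (adjusted p = 0.527). Within each mouse the genotypes were loaded in opposite channels. A single WT cell with 248 UMIs held 97.3% of the Xcl1 UMIs of WT sample 2. By share of cells, Ccl5 was found in 10.8% ± 1.71 of ∆Foxp3 and 13.2% ± 1.97 of WT cells (SD, n = 3 each, exact two-sided permutation p = 0.2, adjusted over the 6 members 1, where 3 against 3 allows no p below 0.1 and the pairing by mouse is not used).

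The difference between the genotype effect in intact V3 mice and that in chimeras was tested in the same V3 fit. Ccl5 differed, with an effect larger by 2.63 ± 0.58 on the log2 scale in the mice (adjusted p = 0.00235; 1.84 without WT chimera sample 1, 3.28 without the NKT-labelled cluster and marker-bearing cells, 1.88 with each cell counted at most once). Cxcl10 also passed at 2.51 ± 0.94 (adjusted p = 0.0480), and fell short without any 1 of 5 samples: ∆Foxp3 mouse sample 2 (adjusted p = 0.143), ∆Foxp3 chimera 1 (0.10) or 3 (0.105), WT mouse sample 2 (0.152) and WT chimera 3 (0.144). These were 2 of the 6 members, beside 18.7% of genes with a larger effect in the mice. With the replicate number as a block, 5 members passed, adding Ccl1 (5.12, adjusted p = 0.0246), Ccl3 (5.10, adjusted p = 0.00464) and Ccl4 (3.55, adjusted p = 0.000881). Both comparisons come from separate samples, with age, host and WT strain differing between them.

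Between the sorts of WT mice, Ccl5 was lower in GFP+ Treg than in GFP- Tconv cells, at 142.8 and 209.1 CPM against 414.4 and 846.0 CPM. This was the only member that passed (log2 fold change -2.06 ± 0.51, adjusted p = 0.0137), beside 6.01% of genes that were lower. It missed the threshold without Tconv 2 (-1.55, adjusted p = 0.110), Treg 1 (-1.85, adjusted p = 0.107) or Treg 2 (-2.30, adjusted p = 0.0663), and counting each cell at most once turned it to 0.16 (adjusted p = 0.772). Cxcl10 was at 21.7 and 38.0 CPM in Treg and 4.65 and 2.09 CPM in Tconv (2.69, adjusted p = 0.257). Summed B cell markers were higher in the Treg sorts, at 407.9 and 535.1 CPM (Ebf1 at 0 in both) against 195.3 and 205.2 CPM. Cells bearing B cell markers were 33.6% of Treg-sort cells and held 71.9% of their Ccl5 UMIs, against 9.61% and 10.7% in the Tconv sorts, and 1 cell held 161 of the 308 Ccl5 UMIs of Treg 2. Without the NKT-labelled cluster and all marker-bearing cells the Ccl5 difference was -2.87 (adjusted p = 0.00676). Ccl3 had 0 UMIs in all 4 sorted samples. Xcl1 had 0 UMIs in both Treg samples and was at 1.03 and 6.28 CPM in Tconv.

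Within activated Tconv, a class that includes Th1, Tfh and NKT-labelled clusters, the genotypes were compared again. All 6 members passed in V2: 5 rose (Ccl1, Ccl3, Ccl4, Ccl5, Cxcl10), beside 9.16% of the 8170 genes tested, and Xcl1 fell, beside 6% of genes. Ccl4 was at 452.9 and 687.7 CPM in ∆Foxp3 and 25.5 and 0.657 CPM in WT A and B, with a log2 fold change of 5.34 (adjusted p = 9.64e-05; 9.59 without WT A, 4.49 without WT B). Ccl3 was at 90.6 and 159.8 CPM against 1.09 and 0.657 CPM, or 476 UMIs against 3, a ratio of 133 with a counting interval of 45.3 to 648. Neither gene's values overlapped. Both genes passed without the NKT-labelled cluster and marker-bearing cells and with each cell counted at most once. Ccl1 was at 48.4 and 29.4 CPM with 0 UMIs in WT, at least 45.6-fold higher in ∆Foxp3 (adjusted p = 0.000136). Without the NKT-labelled cluster and marker-bearing cells, Ccl1 did not have enough counts to be tested in this class.

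Ccl5 within activated Tconv was at 10607 and 14792 CPM in V2 ∆Foxp3 and 7162 and 4303 CPM in WT, a smaller difference than over all cells (log2 fold change 1.15 ± 0.20, adjusted p = 0.00429). It missed the threshold in DESeq2 (adjusted p = 0.0903) and without the NKT cluster and marker-bearing cells (0.63, adjusted p = 0.181), and was 0.48 with each cell counted at most once. Cxcl10 was at 42.5 and 24.5 CPM against 0.543 and 3.29 CPM in WT A and B (4.22, adjusted p = 0.000656; 3.33 without WT A, 5.83 without WT B). Xcl1 was at 13.5 and 4.29 CPM in ∆Foxp3 and 54.9 and 34.2 CPM in WT (-2.22 ± 0.37, adjusted p = 0.00309; -3.37 without ∆Foxp3 A). The class was made up differently in the genotypes: the NKT-labelled cluster, which held 148 of the 153 WT Xcl1 UMIs, was 312 of 1078 WT cells and 99 of 1268 ∆Foxp3 cells, and Tfh cells were 78 and 218 of these. The ∆Foxp3 A value of Xcl1 came mostly from 1 cell with 27 of the 32 UMIs.

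In activated Tconv of V3, 1 of the 6 members passed, beside 5.31% of 8744 genes that rose. This was Ccl3, at 53.0 and 19.9 CPM in ∆Foxp3 with 0 UMIs in WT, at least 12.5-fold higher (adjusted p = 0.00408, or 0.0835 without WT 1). Ccl4 was at 196.6 and 52.9 CPM against 46.4 and 0 CPM (2.24, adjusted p = 0.0511), and Ccl1 at 19.98 and 35.3 CPM against 0 UMIs (adjusted p = 0.0853). Of the 30 Ccl4 UMIs of WT in this class, 27 were in 1 NKT-labelled cell. With the loading channel as a replicate block, Ccl1 (adjusted p = 0.00323), Ccl3 (6.04e-05) and Ccl4 (3.63e-05) all passed. Ccl5 was at 4323 and 3052 CPM in ∆Foxp3 and 2858 and 2586 CPM in WT, a log2 fold change of 0.46 ± 0.44 (adjusted p = 0.556). Cxcl10 was at 15.6 and 59.0 CPM against 18.6 and 0 CPM and overlapped (1.86, adjusted p = 0.366), and Xcl1 was at 0 and 0.623 CPM against 7.73 and 0 CPM.

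In activated Tconv of the chimeras, 0 of the 6 members passed in edgeR's test, beside 0.137% of genes, with 2 members (Ccl1 and Xcl1) at an unadjusted p under 0.05 and 0 called by DESeq2. Ccl5 was at 653.6, 644.6 and 685.7 CPM in ∆Foxp3 cells and at 1250, 243.8 and 417.8 CPM in WT cells of the same hosts. With the shared mouse as a replicate block, Ccl1 (log2 fold change 3.71, adjusted p = 0.0466) and Xcl1 (-1.61, adjusted p = 0.0235) passed. Both calls rest on few cells, since 50 of the 51 Ccl1 UMIs of ∆Foxp3 sample 1 and 248 of the 253 Xcl1 UMIs of WT sample 2 were each in 1 cell. Both also compare opposite loading channels within each mouse. For the difference between mice and chimeras in this class, 0 of the 6 passed in edgeR's test, beside 8.19% of genes, with 0 at an unadjusted p under 0.05 and 0 by DESeq2.

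In cells that the authors annotated as Treg, which in ∆Foxp3 samples lack functional Foxp3, Ccl5 was much higher than in WT Treg. Its level was 8725 and 13497 CPM in V2 ∆Foxp3 (189 and 113 cells) and 222.7 and 241.2 CPM in WT (276 and 214 cells). The log2 fold change was 5.52 ± 0.17 (adjusted p = 1.7e-15). V3 gave 6109 and 3386 CPM against 163.7 and 221.7 CPM, from 65, 66, 37 and 29 cells (4.56 ± 0.50, adjusted p = 1.42e-07). The groups were far apart in both kits. The class also held more activated Treg in ∆Foxp3, 186 of 302 cells against 99 of 490 in V2 and 85 of 131 against 29 of 66 in V3. Within the activated Treg cluster Ccl5 was at 16948 against 800.0 CPM in V2 and 5826 against 373.0 CPM in V3, and within the resting Treg cluster at 318.9 against 77.3 CPM and 2243 against 34.4 CPM, as descriptions without a test. In the chimeras the same class was at 35.1, 599.9 and 160.4 CPM in ∆Foxp3 and 257.7, 303.0 and 70.4 CPM in WT cells, with overlap (0.30, adjusted p = 0.926).

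Of the other members, Ccl3, Ccl4 and Cxcl10 also rose in Treg-annotated cells of V2, so that all 4 members with enough counts to be tested passed, beside 8.54% of 5492 genes that rose. Ccl1 and Xcl1 did not pass the filter on low counts there. Ccl4 was at 234.5 and 664.3 CPM with 0 UMIs in WT, at least 172.2-fold higher (adjusted p = 1e-08), and Ccl3 at 94.8 and 173.2 CPM with 0 UMIs in WT, at least 54.2-fold higher (adjusted p = 3.67e-08). Cxcl10 was at 21.6 and 93.7 CPM against 0 and 1.75 CPM (46 UMIs against 1, a ratio of 63.4 with a counting interval of 10.8 to 2556, adjusted p = 0.000255; log2 fold change 5.62, or 6.51 without ∆Foxp3 A and 4.62 without WT A). With each cell counted at most once per gene, Ccl5 (1.56) and Ccl4 (0 UMIs in WT) passed, and Ccl3 and Cxcl10 no longer had enough counts to be tested.

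In V3, 3 of the 4 members tested rose in Treg-annotated cells, beside 3.6% of 6136 genes, and these were Ccl5, Ccl4 and Cxcl10. Ccl4 was at 98.2 and 42.6 CPM with 0 UMIs in WT, at least 8.30-fold higher (adjusted p = 0.00228, or 0.0599 without ∆Foxp3 1). Cxcl10 was at 7.01 and 97.1 CPM with 0 UMIs in WT, at least 7.44-fold higher (adjusted p = 0.0370). That call was lost without ∆Foxp3 2 (adjusted p = 0.526), WT 1 (0.206) or WT 2 (0.159). In ∆Foxp3 2, 4 of 66 cells held all 57 Cxcl10 UMIs. Without the NKT-labelled cluster and marker-bearing cells Ccl5 passed (6.85) and Ccl4 (adjusted p = 0.320) and Cxcl10 (adjusted p = 0.172) did not. With each cell counted at most once, Ccl5 was the member with enough counts to be tested, and its change was 1.52 (adjusted p = 0.00328).

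In the chimeras, Cxcl10 and Ccl1 were called higher in ∆Foxp3 Treg-annotated cells, beside 0.179% of genes that rose, and both rest on few cells. Cxcl10 was at 159.7, 167.1 and 38.0 CPM from 4, 4 and 2 cells, against 27.8, 36.1 and 9.39 CPM in WT cells from 2, 4 and 3 cells (log2 fold change 2.26, adjusted p = 0.0281). The call was lost on leaving out any chimera sample but ∆Foxp3 3, and in DESeq2 (adjusted p = 0.773). All 142 Ccl1 UMIs of the ∆Foxp3 samples were in 1 cell of sample 1, and without that sample Ccl1 could not be tested.

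Levels were then described by the clusters that the authors named, with no test, since clusters were drawn from the same expression values. The Tfh cluster (follicular helper cells) and a resting Tconv cluster labelled TCRhi held most Ccl3 and Ccl4 UMIs of ∆Foxp3 mice. Ccl3 was at 397 CPM in Tfh and 502 CPM in TCRhi cells in V2, and at 269.9 and 144.5 CPM in V3. Ccl4 reached 2197 CPM in Tfh and 1529 CPM in TCRhi cells in V2, and 967 and 469 CPM in V3. Although Tfh cells were 4.61% and 4.96% of ∆Foxp3 cells in V2 and V3, they held 31.2% and 59.1% of the Ccl3 UMIs and 44.1% and 58.8% of the Ccl4 UMIs. Tfh cells of V2 WT showed 197 CPM of Ccl4, from 1 of 78 cells.

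**Figure D2:**
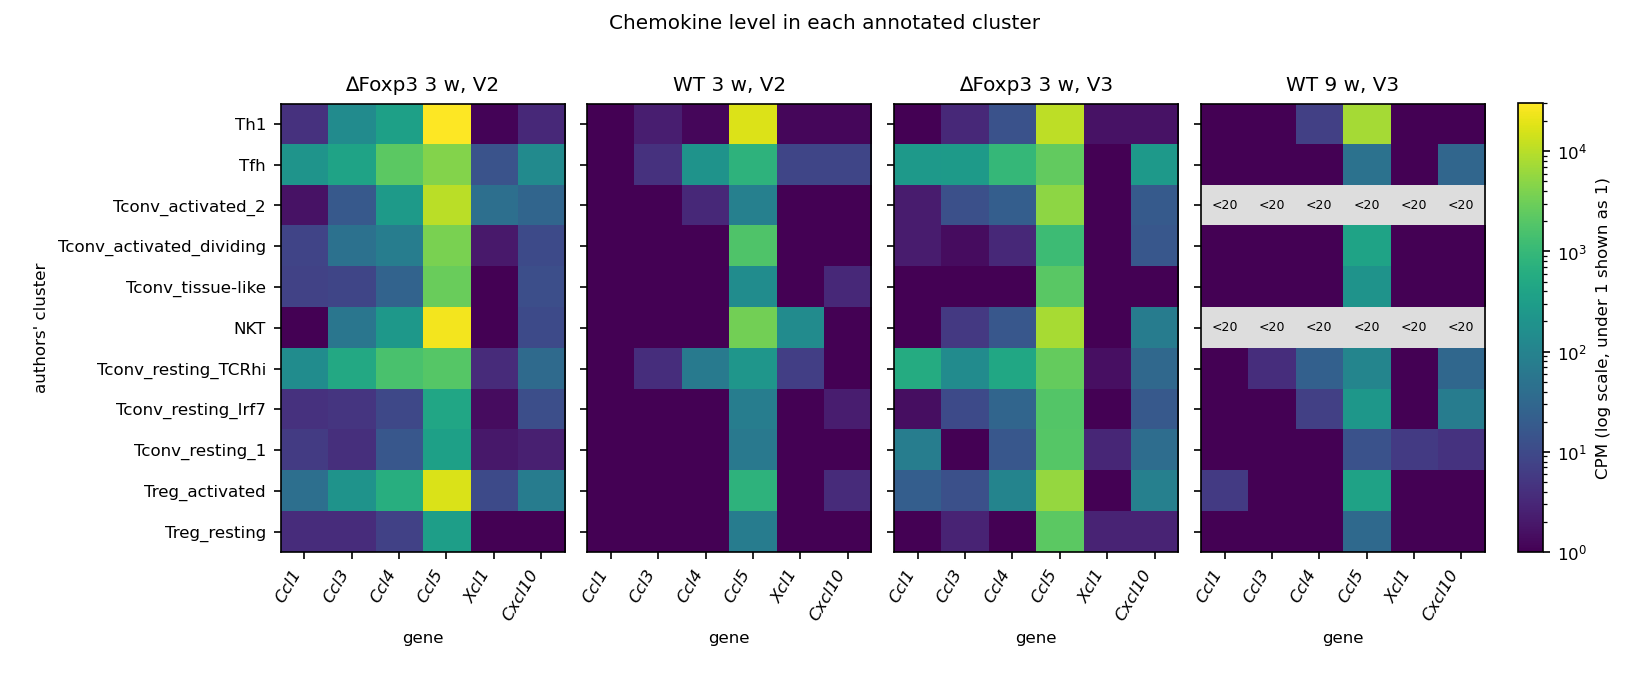
Level of each member (colour, CPM on a log scale, values under 1 shown as 1) in 11 of the authors' clusters, for ∆Foxp3 and WT mice in V2 and V3; grey marks clusters with fewer than 20 cells. Ccl3 and Ccl4 are highest in Tfh and TCRhi clusters of ∆Foxp3 mice, and Ccl5 in Th1, where it is high in WT too.

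Ccl5 followed another order. Among clusters with at least 20 cells, its level was highest in Th1 cells. There it was at 29900 CPM in V2 ∆Foxp3, 17696 CPM in V2 WT, 10741 CPM in V3 ∆Foxp3 and 7522 CPM in V3 WT. The NKT-labelled cluster of V3 WT, with 625 Ccl5 UMIs in 13 cells, was outside this limit. Th1 was also the leading cluster in the chimeras, with 3299 CPM in ∆Foxp3 and 2724 CPM in WT cells. Wide gaps between genotypes were seen in other clusters: activated cluster 2 was at 10518 CPM in V2 ∆Foxp3 and 87.5 CPM in WT, and the activated Treg cluster at 16948 and 800.0 CPM. In V2 WT, Th1 cells held 68.9% of all Ccl5 UMIs, and in V2 ∆Foxp3 42.7%. In V3 ∆Foxp3 the first 2 clusters by UMIs were activated cluster 2 with 28.1% and the largest resting cluster with 24.6%.

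Ccl1 and Cxcl10 were also high in Tfh cells of ∆Foxp3 mice, although 43.7% of the V3 Ccl1 UMIs lay in the largest resting cluster. Ccl1 was at 205 CPM in Tfh and 149 CPM in TCRhi cells in V2, and at 263 and 561 CPM in V3. Cxcl10 was at 141 CPM in Tfh cells in V2 and 263 CPM in V3, with UMIs in 13.8% and 18.8% of Tfh cells. In the largest resting cluster the V2 share of cells with Ccl3 and Ccl4 was 1.15% and 3.02%, against 9.63% and 12.8% in Tfh cells. How much of the resting share is background was not tested. In the chimeras, Cxcl10 was at 251 CPM in activated Treg of ∆Foxp3 origin (13.5% of 74 cells) and 60.04 CPM in those of WT origin (5.30% of 151 cells), while the resting cluster marked by Irf7, an interferon-induced factor, had 24.8 CPM in ∆Foxp3 and 120.5 CPM in WT cells.

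The members differed in how their UMIs were spread over cells. In V2 ∆Foxp3 mice the 10 cells with most Ccl1 UMIs held 77.5% of them, and the same share was 62.1% for Ccl3, 56.9% for Ccl4, 38.3% for Cxcl10 and 5.37% for Ccl5. In V3 the shares were 88.6% for Ccl1, 74.9% for Ccl3, 69.1% for Ccl4, 40.7% for Cxcl10 and 7.57% for Ccl5. The order of these 5 members was thus the same in both kits. Xcl1, with 64 UMIs in V2 and 23 in V3, did not keep its place. Its shares were 70.3% and 91.3%, below Ccl1 in V2 and above it in V3. Cells with 20 or more Ccl4 UMIs numbered 28 in V2 and 19 in V3, and they held 85.1% and 87.0% of its UMIs. A single cell held 28.6% of the Ccl4 UMIs of V3 ∆Foxp3. Cells with 20 or more Ccl1 UMIs numbered 4 and 12, and in V3 their median depth was 12529 UMIs beside 7559 for the group, whereas for Ccl3 in V2 it was 3594 beside 3077.

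**Figure D3:**
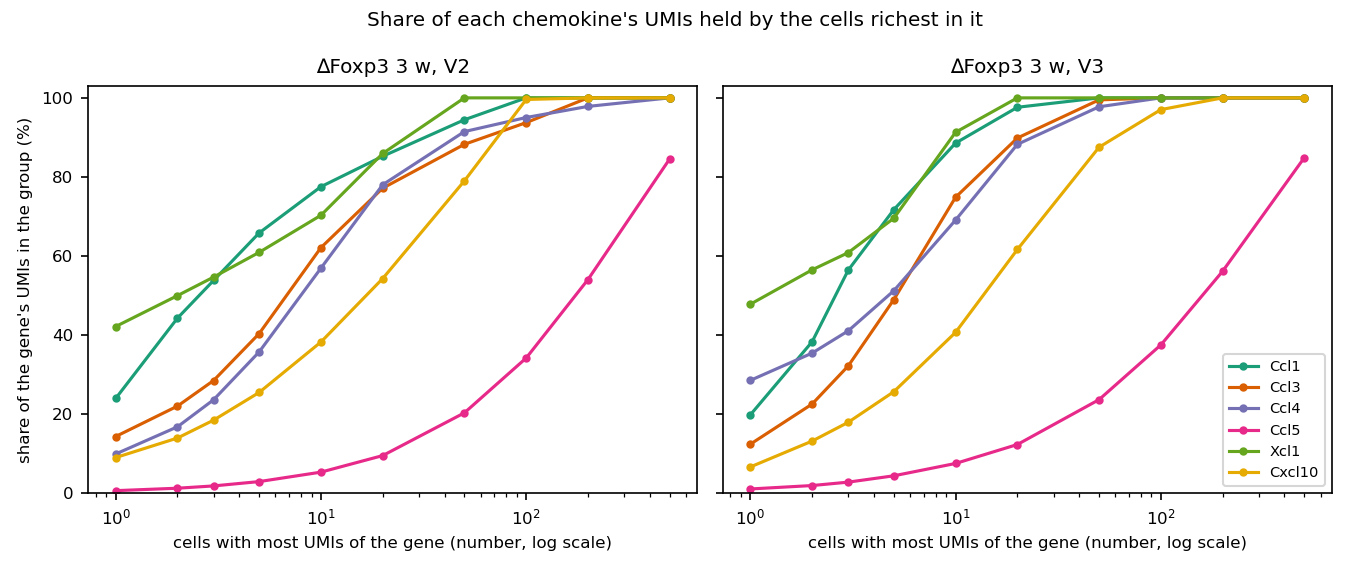
Cumulative share of a gene's UMIs (percent, y axis) held by the cells with most of them (number of cells, log x axis) in ∆Foxp3 mice of V2 and V3, 1 line per member. The 10 leading cells hold 77.5% and 88.6% of Ccl1 UMIs but 5.37% and 7.57% of Ccl5 UMIs.

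Ccl3 and Ccl4, neighbours on the chromosome, were often found in the same cells. Of the Ccl3-positive ∆Foxp3 cells, 65 of 157 in V2 had a Ccl4 UMI (41.4%, exact 95% binomial interval 33.6 to 49.5), against 4.63% of the other cells. In V3 it was 32 of 52 (61.5%, 47.0 to 74.7), against 2.65%. Ccl5 was found in 84.8% and 97.6% of Ccl4-positive cells, beside 64.6% and 67.1% of the rest. Cxcl10 was found in 1.27% and 1.92% of the 157 and 52 Ccl3-positive cells and in 2.16% and 6.31% of the rest. So few cells had both Ccl3 and Cxcl10 that these shares cannot show whether the genes avoid each other. Ccl1-positive cells had Cxcl10 in 8.82% and 23.7%, against 2.04% and 5.85% of the rest. Deeper cells show more of every gene, and cells of 1 sample are not replicates, so these shares are descriptions and the intervals cover counting error only.

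Ccl5 was also found widely in resting Tconv of ∆Foxp3 mice. At least 1 UMI was present in 56.7% and 61.1% of these cells in V2 and 55.7% and 60.3% in V3, against 17.4% and 15.9% in V2 WT and 6.53% and 11.5% in V3 WT. After every cell was thinned to 1500 UMIs the shares were 34.6% and 40.4%, 41.8% and 43.4%, 10.4% and 8.27%, and 2.74% and 3.95% in the same order. The ∆Foxp3 samples stayed above WT at equal depth. Unthinned median depths were 3092 and 2815 UMIs in V2 ∆Foxp3, 2741 and 2857 in V2 WT, 6313 and 7989 in V3 ∆Foxp3, and 5213 and 6587 in V3 WT. By level, Ccl5 was at 335.0 and 859.7 CPM in V2 ∆Foxp3 against 81.6 and 65.6 CPM, and at 2103 and 2023 CPM in V3 ∆Foxp3 against 42.7 and 40.4 CPM.

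**Figure D4:**
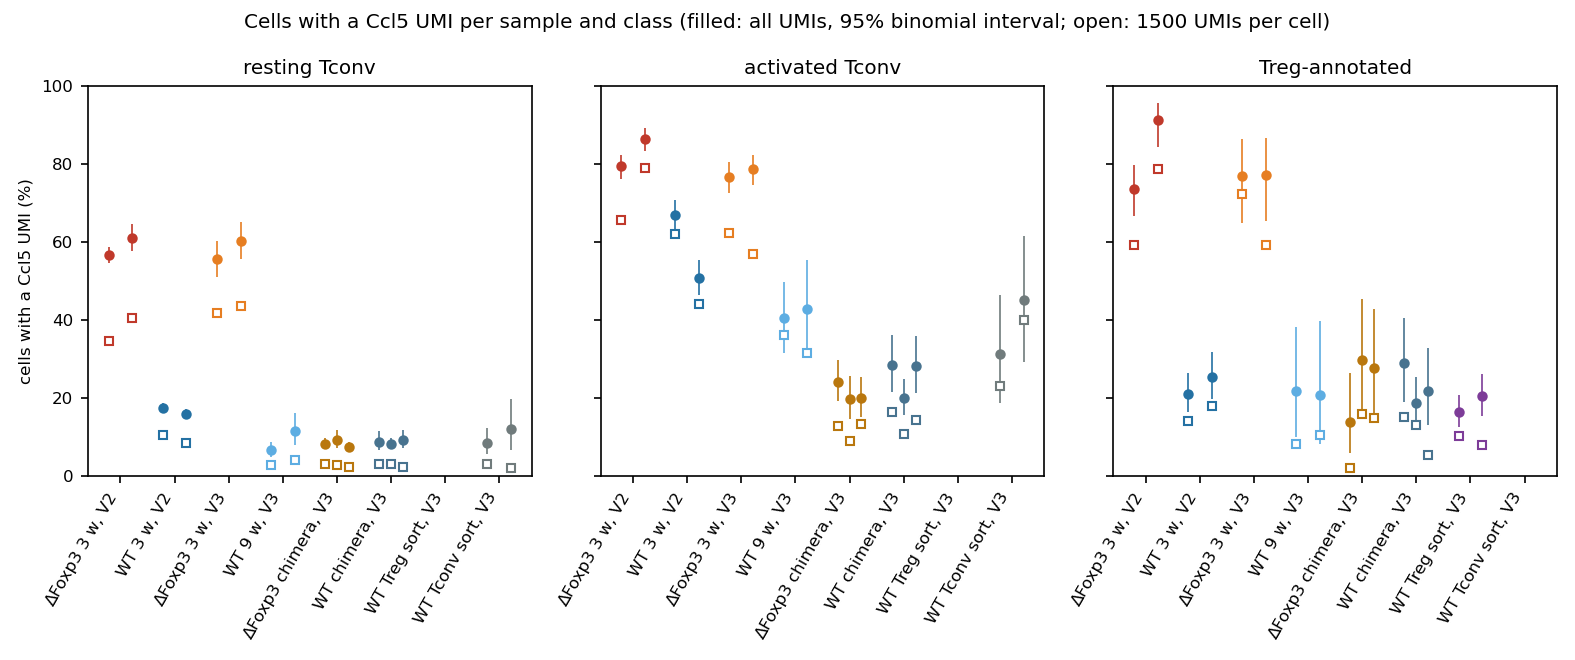
Share of cells with a Ccl5 UMI (percent) in resting Tconv, activated Tconv and Treg-annotated cells of each sample; filled points use all UMIs with exact 95% binomial intervals, and open points use 1500 UMIs per cell. Resting cells of ∆Foxp3 mice lie at 55.7% to 61.1% and those of the chimeras at 7.28% to 9.22%.

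Free RNA in a droplet can give Ccl5 UMIs to cells that do not make it. The V3 cells were pooled and loaded in the same 2 channels. There the resting Tconv of WT mice, Tconv sorts and chimeras had Ccl5 in 6.53% to 12.0% of cells. The V2 samples were loaded 1 per channel, and the reads assigned to cells, as the authors deposited it, made up a fraction of 0.597 and 0.534 for ∆Foxp3 and 0.791 and 0.795 for WT. The part of free RNA in the V2 and V3 shares was not tested. In Treg-annotated cells the Ccl5 share was 73.5% and 91.2% in V2 ∆Foxp3, 76.9% and 77.3% in V3 ∆Foxp3, 21.0% and 25.2% in V2 WT and 21.6% and 20.7% in V3 WT. In activated Tconv it was 79.4% and 86.4%, 76.7% and 78.6%, 66.9% and 50.8%, and 40.3% and 42.9% in that order, so that WT activated cells came nearest to ∆Foxp3.

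The NKT-labelled cluster stood out for Xcl1 in V2 WT, where 88.1% of its UMIs were in this cluster and 93 of 312 of its cells had a UMI (29.8%, 24.8 to 35.2) at a level of 147.3 CPM. The same cluster had Xcl1 in 8 of 29 WT chimera cells (27.6%, 12.7 to 47.2) and 9 of 28 ∆Foxp3 chimera cells (32.1%, 15.9 to 52.4). In ∆Foxp3 mice it had none, in 0 of 99 cells of V2, which allows a share of up to 3.03%, and 0 of 27 cells of V3, which allows up to 11.1%. These limits are for cells with a UMI at this depth, not for cells expressing the gene, and the exact 95% upper bounds are 3.66% and 12.8%. In the V3 groups most Xcl1 UMIs lay outside the cluster, which held 16.1% of them in 9-week-old WT (5 UMIs in 3 of 13 cells), 12.9% in WT and 19.4% in ∆Foxp3 chimeras and 25% of the 8 UMIs of the Tconv sorts. Median depths of the cluster's cells were 3163 UMIs in V2 WT, 2881 in V2 ∆Foxp3, 5834 and 5422 in the WT and ∆Foxp3 chimeras and 6440 in V3 ∆Foxp3.

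Zbtb16 and Klrb1c, markers of the cluster, were also found in smaller shares in ∆Foxp3 mice than in V2 WT mice and chimeras. The Cd160 share in ∆Foxp3 mice was below that of V2 WT but not below those of the chimeras. Zbtb16, which encodes the NKT factor PLZF, was found in 16.7% of V2 WT cells, 17.2% and 7.14% of WT and ∆Foxp3 chimera cells, and 0 of the 99 and 27 cells of V2 and V3 ∆Foxp3 mice. Klrb1c, the NK1.1 receptor, was found in 33.7%, 10.3%, 14.3%, 2.02% and 3.70% in the same order. In V3 ∆Foxp3 that is 1 of 27 cells, beside 3 of 29 and 4 of 28 in the WT and ∆Foxp3 chimeras. In ∆Foxp3 mice the cells with this label thus had no Zbtb16 UMI and few with Klrb1c. Cd160 was found in 66.0% of V2 WT cells and in 31.0% and 35.7% of WT and ∆Foxp3 chimera cells. In V2 and V3 ∆Foxp3 mice it was found in 38.4% and 55.6%. Cd4 was found in 18.3% of V2 WT cells and in 69.0% and 50.0% of WT and ∆Foxp3 chimera cells. In V2 and V3 ∆Foxp3 mice Cd4 was found in 53.5% and 81.5%. Cd8a was found in 0%, 0%, 3.57%, 5.05% and 14.8% in the same order of groups. The markers did not all go the same way, and whether the label holds in ∆Foxp3 mice was not tested. Their Ccl5 share was 99.0% in V2 ∆Foxp3 and 92.3% in V2 WT.

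**Figure D5:**
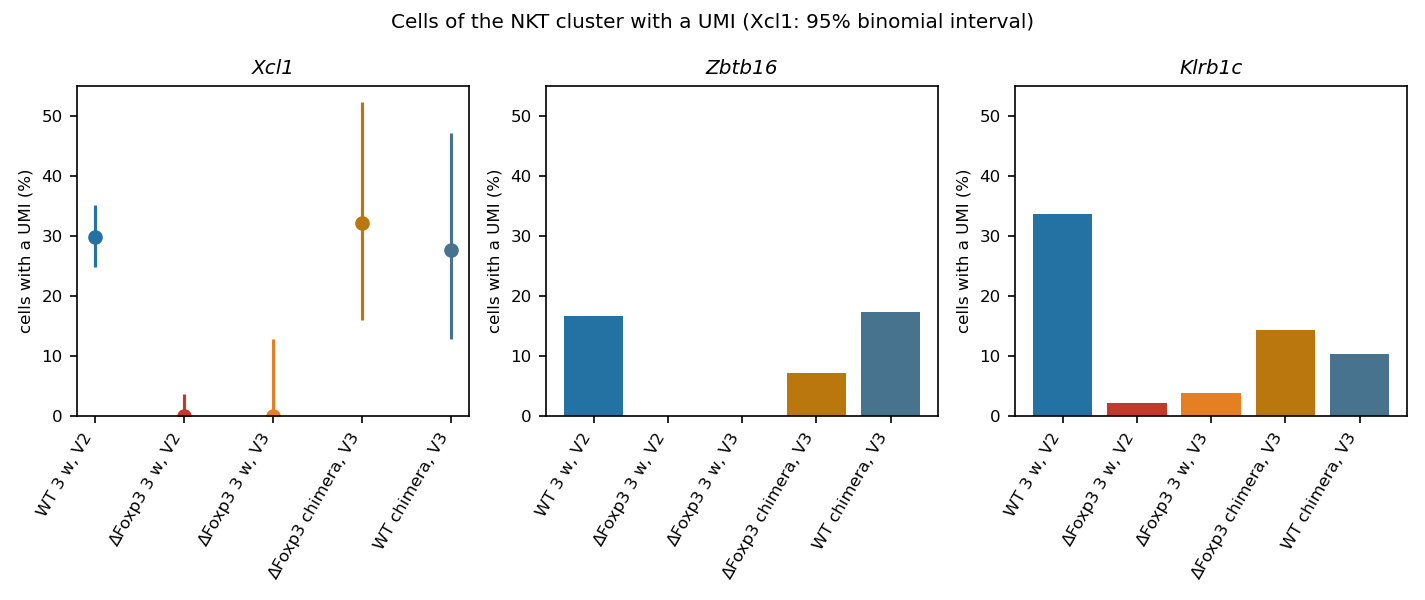
Share of cells with a UMI (percent) in the NKT-labelled cluster of 5 groups, for Xcl1 with exact 95% binomial intervals and for the NKT markers Zbtb16 and Klrb1c without intervals. Xcl1 is in 27.6% to 32.1% of cells in V2 WT mice and both chimera groups, and in 0 cells in ∆Foxp3 mice; V3 WT mice, with 13 cells, are not drawn.

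Genes for the members' receptors rose with them. Over all cells all 4 receptor genes tested in V2 rose and 4 of 6 in V3, beside 14.4% and 22.1% of all genes tested, with median log2 fold changes of 1.93 and 1.64. Cxcr3, the receptor of Cxcl10, rose by 1.16 (adjusted p = 0.0108) and 2.01 (adjusted p = 0.000813). Ccr1 rose by 4.77 and 3.76 and Ccrl2, a non-signalling chemokine-binding receptor, by 1.32 and 1.22. In Treg-annotated cells Cxcr3 rose by 2.34 in V2 and 1.09 in V3. In the chimeras 0 of 6 passed over all cells in edgeR's test, with 4 at an unadjusted p under 0.05, all of them lower in ∆Foxp3 cells.

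Among 20 genes of transcription factors and signals known to induce these chemokines, 11 rose and 1 fell in V2, and 12 rose and 3 fell in V3, with medians of 1.19 and 0.56. Of all genes tested 14.4% rose and 9.61% fell in V2, and 22.1% rose and 20.9% fell in V3. Irf8 and Irf1, interferon regulatory factors, rose by 3.05 and 1.30 in V2. In V3, Tbx21, the Th1 factor T-bet, rose by 2.35 (adjusted p = 7.91e-05) and Ifng, interferon γ, by 2.96. Within activated Tconv, 6 of 19 rose in V2, beside 9.16% of all genes, Ifng by 2.51 and Irf8 by 1.84 among them, and in V3 Irf1 rose by 0.65. In Treg-annotated cells 9 of 16 rose and 1 fell in V2, and 2 of 18 rose in V3, beside 8.54% and 3.6% of all genes that rose, with Ifng up by 4.79 and 4.99. In the chimeras 0 of 20 passed over all cells in edgeR's test, with 3 at an unadjusted p under 0.05.

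Of 19 genes that carry or limit signals below chemokine receptors, 6 rose and 4 fell in V2 (median -0.05), and 11 rose and 2 fell in V3 (median 0.37), beside the same shares of all genes. Rgs16 and Rgs1, which switch off G protein signals, rose by 4.54 and 1.91 in V2, and Rgs2 of the same family fell (-0.77). Gng2, a G protein γ subunit, rose by 1.5 and 1.79 in the 2 kits. In activated Tconv 5 and 3 of 19 rose in V2 and V3, beside 9.16% and 5.31% of all genes, and in Treg-annotated cells 5 and 3 of 15 rose, beside 8.54% and 3.6%. The chimeras gave 0 of 19 over all cells in edgeR's test and 2 at an unadjusted p under 0.05. Of the 31 other chemokine ligand genes, 2 had enough counts to be tested in V2, and 0 of these passed (1 at an unadjusted p under 0.05). In V3 3 were tested, and Ccl24 (6.76, adjusted p = 0.00435) and Ccl27a (1.58, adjusted p = 0.00275) rose.

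Genes whose level across the 12 V3 samples of activated Tconv was most like that of a member were ranked by Pearson's r over 8744 genes, as a description of samples that share channels and differ in depth. Ccl5 was most like Ly6c2 (r = 0.949), a surface protein of memory T cells, and Slamf7 (r = 0.930), a receptor of cytotoxic and activated lymphocytes. The nearest gene to Ccl1 was Cd8a (r = 0.916). Ccl3 was nearest to Nccrp1 (r = 0.988), Ccl4 to Zfp36l2 (r = 0.941), which encodes an RNA-binding protein, Xcl1 to Ascl2 (r = 0.918), a transcription factor of Tfh cells, and Cxcl10 to Mat2b (r = 0.917). Some of these values rest on few samples or cells. Xcl1 was highest in WT chimera sample 2, at 157.7 CPM, mostly from 1 Tfh-labelled cell with 248 UMIs. Ccl3 was at or below 0.788 CPM in every sample outside the ∆Foxp3 mice. Ccl1 in ∆Foxp3 chimera sample 1 came mostly from 1 cell.

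Markers of other cell types moved with genotype in part. Summed myeloid markers were at 118.3 and 133.3 CPM in V2 ∆Foxp3 against 94.3 and 94.2 CPM in WT, and at 202.1 and 218.3 CPM against 85.5 and 105.7 CPM in V3. Of these markers 1 of 6 tested rose in V2 and 3 of 8 in V3. Of all genes tested 14.4% rose and 9.61% fell in V2, and 22.1% rose and 20.9% fell in V3. Summed CD8 and NK cell markers were at 47.8 and 70.1 CPM against 43.3 and 35.7 CPM in V2, and 32.3 and 42.3 CPM against 19.5 and 17.9 CPM in V3, where Ncr1 and Klra8 had 0 UMIs in ∆Foxp3. In each kit Cd8a rose. Summed erythroid markers were at 113.9 and 517.6 CPM in V2 ∆Foxp3 and 153.7 and 106.3 CPM in WT, and in edgeR's test 0 of 3 passed in either kit, also at an unadjusted p under 0.05. Of 5 B cell markers 2 rose and 2 fell in each kit, beside the same shares of all genes. Xbp1, a plasma cell marker, rose in V3. Of the NKT and γδ T cell markers Zbtb16 fell in V2 and Cd160 rose in V3. Of the 8 CD4 T cell markers 2 fell in V2 and 5 in V3, beside 9.61% and 20.9% of all genes.

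Cells bearing such markers held part of the members' UMIs. Cells with erythroid markers were 9.81% of V2 ∆Foxp3 cells and held 41.8% of the Ccl1, 20.1% of the Ccl3 and 16.1% of the Ccl4 UMIs. Cells with myeloid markers were 10.2% of V3 ∆Foxp3 cells and held 41.9% of the Ccl1 UMIs. With the NKT-labelled cluster and all marker-bearing cells left out, the members that had passed over all cells passed again. The V2 log2 fold changes were then 7.61 for Ccl3, 6.40 for Ccl4, 2.67 for Ccl5 and 5.08 for Cxcl10, with 0 UMIs of Ccl1 in WT. Those of V3 were 5.06 for Ccl4 and 2.58 for Ccl5.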

How the data were processed

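The members and gene lists were chosen with earlier results of these data known. Per the submitters' processing notes, the authors ran Cell Ranger 3.0.2 with the mm10 genome. They deposited raw UMI counts per gene and cell for cells they had filtered, demultiplexed and annotated. Whether the counting used strand is not stated in the labels. They also deposited the fraction of reads in cells for each library. Classes and clusters are the authors' labels, and 50 of 59 cell metadata columns were not used.

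Counts were summed per sample over all cells, activated Tconv or Treg-annotated cells (at least 20 cells), and tested with edgeR 4.0.16 in R 4.3.3 (quasi-likelihood test after TMM scaling, genes kept by filterByExpr at a minimum of 10, Benjamini-Hochberg adjustment over all genes tested, threshold 0.05). The 4 V2 samples were fitted together, and the 14 V3 samples together, sharing 1 estimate of spread. V2 and V3 were not compared by test. The step was tested on simulated data. CPM are UMIs scaled to the total of a sample or class. Depths per sample are given with the results and limit precision for members with few UMIs. Shares have exact Clopper-Pearson 95% intervals, and for 0 cells the limit is that of 3 counts. Intervals and floors cover counting error only. Shares were also computed with each cell thinned to 1500 UMIs. Permutation tests used scipy 1.17.1.

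Genes named beside the 6 members are up to 4 of each list with the lowest p in a comparison, and for likeness the genes with the highest r in log2 CPM (prior count 2). The lists were receptors, receptor signalling, inducers, other chemokines (31 of 32 matched) and markers of CD4 T, B, plasma, myeloid, CD8 and NK, erythroid, and NKT and γδ T cells. Some genes of these lists are not reported by name here. The count of UMIs capped at 1 per cell, the omission of marker-bearing cells, DESeq2 1.42.0, no filter on low counts, a channel term, a replicate block, fits of the groups compared only and each sample left out were tried as alternatives.

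Same-numbered chimera samples share a hashtag and so a mouse. Their deviations from the group means correlated at 0.0599, 0.0529 and 0.0215 over all cells and at 0.121, 0.176 and 0.0366 in activated Tconv. The genotypes of each chimera mouse were loaded in opposite channels. Channel A held ∆Foxp3 1 and 3 and WT 2 (median 5370, 5307 and 4969 UMIs per cell). Channel B held ∆Foxp3 2 and WT 1 and 3 (6527, 6253 and 6370). Genotype differences within a chimera mouse are thus also differences between channels. In the other V3 groups the number is the loading channel (correlation 0.140 between the mouse groups over all cells, 0.130 in activated Tconv). The V2 letters only name samples (0.0771).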

Additional observations from a re-analysis of the deposited data

Results flagged for a closer look

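The effect of the ∆Foxp3 genotype on Ccl5 over all cells differed between intact V3 mice and marrow chimeras, with a difference of log2 fold changes of 2.63 (edgeR quasi-likelihood test, adjusted p = 0.00235, 4 samples of mice and 6 of chimeras). For Cxcl10, the interferon-induced ligand of Cxcr3, the same difference was 2.51 (adjusted p = 0.0480), and DESeq2 did not call it (adjusted p = 0.147). In both cases the effect was higher in the mice. Age, host and WT strain differ between the 2 settings and cannot be told apart from the presence of WT cells.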

How the results depend on the processing

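Over all cells of the mice, 5 members in V2 and 4 in V3 passed on leaving out each sample in turn, and changes in size are given with each gene. Counts of members that moved by more than 1.5 times follow. With no filter on low counts the count went from 0 to 4 for chimeras over all cells, from 1 to 3 for the sorts, from 2 to 5 for the difference between mice and chimeras, from 1 to 6 in V3 activated Tconv, from 0 to 2 in chimera activated Tconv and from 0 to 1 for the difference there. With the replicate block, which is pairing by mouse in chimeras and by channel elsewhere in V3, it went from 2 to 5 for the difference over all cells, from 1 to 3 in V3 activated Tconv and from 0 to 2 in chimera activated Tconv, and no other count of members moved so far. Without the NKT-labelled cluster and marker-bearing cells it was 4 for the difference, 3 in V2 and 2 in V3 activated Tconv and 1 in V3 Treg-annotated cells. With 1 UMI per cell at most it was 0 for the sorts, V3 activated Tconv and chimera Treg-annotated cells, 2 in V2 and 1 in V3 Treg-annotated cells, mostly because fewer members had enough counts. A channel term gave 4 for the difference and 2 in V3 activated Tconv. Fits of the compared groups alone gave 2 for the sorts, 1 for the difference, 2 in V3 activated Tconv and 1 in chimera Treg-annotated cells, where DESeq2 gave 0. Leaving out single samples gave 0 to 1 for the sorts, 1 to 3 for the difference, 1 to 2 in V3 activated Tconv, 2 in V3 Treg-annotated cells and 0 to 2 in the chimera ones. For single members, 770 of 846 alternatives kept their side of the threshold, 28 lost a call and 46 gained one. Among the 770, 36 changed direction with neither value passing. Reversals were Xcl1 over all cells in V2 (2.29 without the NKT-labelled cluster and marker-bearing cells) and Ccl5 between the sorts (0.16 with 1 UMI per cell at most). Where fewer genes or samples do not account for a change, the cause was not tested. Classes with at least 50 cells per sample gave no value for V3 mice in Treg-annotated cells. Depth limits Ccl1, Ccl3 and Xcl1 in WT and chimera samples, where few UMIs were counted.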
